A study of Trachinotus blochii with 22 samples.

Results

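The predicted microRNAs (miRNAs) of golden pompano (Trachinotus blochii) liver were described across 22 small RNA libraries. They are the entries of the authors' expression table whose names begin with novel_, and they made up 299 of its 2108 entries. The other 1809 entries carry the names of known miRNAs from other species. After entries with identical values in all libraries were counted once, 295 predicted entries were left, beside 1112 known ones. Differences between groups were tested for the 35 predicted entries that reached 1 CPM (reads per 1000000 assigned reads) in at least 2 libraries, within a fit over all 602 entries that did so.

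The study set fish under low oxygen, and fish brought back to oxygen quickly or slowly, against fish kept at normal oxygen. The 8 groups were gradual reoxygenation 12 h and 3 h, rapid reoxygenation 12 h and 3 h, hypoxia 12 h and 0 h, and normoxia 12 h and 0 h. There were 3 libraries each, except for rapid reoxygenation 12 h and normoxia 0 h, which had 2. The labels give no age, strain or oxygen level, give no zero point for the hours, and do not tell whether libraries came from separate fish. The p-values therefore measure only the spread between these libraries, which may be technical.

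A miRNA is a short RNA cut by Drosha and Dicer from a hairpin precursor and loaded into an Argonaute protein, where its seed bases pair with messenger RNAs and lower their translation or stability. Prediction programs propose further miRNAs where reads of a small RNA library stack on a genome stretch that can fold into such a hairpin. Entries found in this way can be genuine miRNAs of the species, or fragments of other RNAs that happen to fit the model. The deposited table gives a number and read levels for each predicted entry, so the predicted entries are named here by number only, and no function is given for them.

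Libraries held 17483816 to 33793069 assigned reads, so that 1 read was worth 0.0296 to 0.0572 CPM and a count of 0 allowed up to 3 reads, 0.0888 to 0.172 CPM. The 5 hepatocyte miRNAs used as a check of the tissue summed to 109604 to 164262 CPM per library. Among them was miR-122, the most abundant miRNA of vertebrate liver. Normoxia 0 h library 2 stood apart from the rest, with a root mean square distance of 1.34 on the log2 scale from the median library, against 0.345 to 0.868 for the other 21. Its level of oha-miR-122-5p was the lowest, at 37563 CPM against 70974 to 109912 CPM in the other 21. Its level of ola-miR-192-5p was the highest, at 98914 CPM against 11849 to 24303 CPM. The hepatocyte sum hides these opposite moves. No member of the marker lists used here was at 0 in all 22 libraries. Library 2 of normoxia 0 h also had the highest summed level of the epithelial list of miR-200a, miR-200b, miR-141 and miR-429, as the normoxia 0 h libraries spanned 2830 to 18011 CPM against 1197 to 3556 CPM in the other groups. Differences against this group are given with and without that library. Where 1 of the 2 libraries of normoxia 0 h or rapid 12 h is left out, the fit takes the spread of the lone library from the other groups.

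Most predicted entries were rare. Their median level was 0.0359 CPM (quartiles 0.0176 and 0.115), against 0.586 CPM (quartiles 0.0331 and 18.5) for known entries. Of the 295, 216 (73.2%) averaged below 0.1 CPM, 57 lay between 0.1 and 1 CPM, 16 between 1 and 10 CPM, and 6 (2.03%) at 10 CPM or more. Among known entries 34.1% averaged below 0.1 CPM and 314 (28.2%) reached 10 CPM. Only identical entries were merged, so shares of known or of all entries count names, and some known names may be near copies of each other. The median predicted entry had 21 reads over all 22 libraries together, and 73 entries (24.7%) had fewer than 10.

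**Figure D1:**
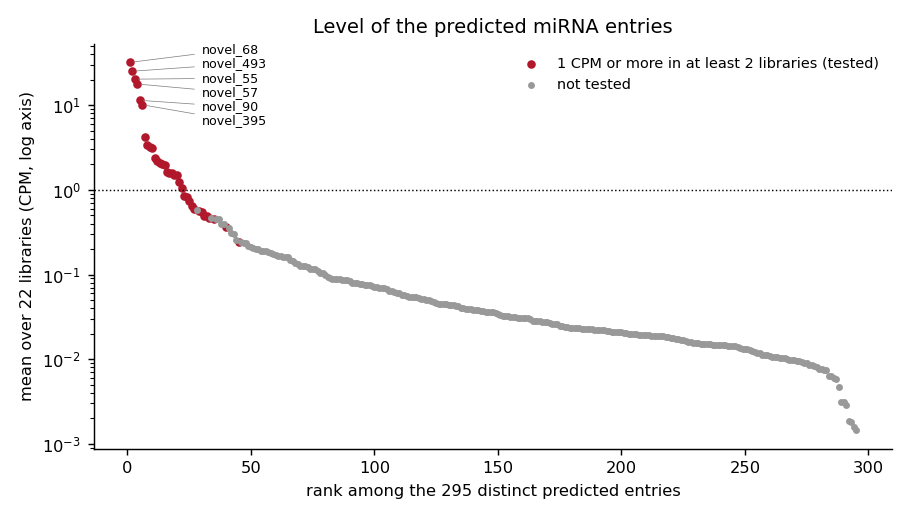
Mean level over the 22 libraries (CPM, log axis) of each of the 295 distinct predicted entries, in order of level. Red points are the 35 entries with 1 CPM or more in at least 2 libraries and the dotted line marks 1 CPM. Only 6 entries lie at 10 CPM or more, and 216 lie below 0.1 CPM.

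The 6 most abundant entries held 66.7% of the summed level of all predicted entries. The first was novel_68, with 32.0 ± 4.78 CPM (SD over 22 libraries), which put it at rank 241 in the whole table, where the most abundant known entry averaged 87809.6 CPM. It was followed by novel_493 at 25.2 ± 26.4 CPM, novel_55 at 20.3 ± 7.51 CPM and novel_57 at 17.8 ± 5.05 CPM. The last of the 6 were novel_90 at 11.4 ± 3.32 CPM and novel_395 at 10.1 ± 12.8 CPM. The next were novel_115, novel_583, novel_123 and novel_333, at 4.19, 3.37, 3.23 and 3.11 CPM. The abundant entries fell into steady and variable ones: novel_68 varied 1.84-fold between its highest and lowest library and novel_90 3.38-fold, while novel_493 varied 218-fold and novel_395 437-fold.

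The names ran from novel_2 to novel_655, and low numbers were the more abundant. The 9 entries numbered up to 100 had a median of 2.22 CPM, and 5 of them were tested. The 39 numbered 101 to 200 had a median of 0.459 CPM, with 19 tested. Above 200 the medians were all low, at 0.0245 CPM from 201 to 300 (64 entries, 1 tested), 0.0539 CPM from 301 to 400 (51 entries, 5 tested), 0.0262 CPM from 401 to 500 (43 entries, 4 tested) and 0.0224 CPM above 500 (89 entries, 1 tested). The fall was not steady, and the most abundant entries from 301 to 400 and from 401 to 500 reached 10.1 and 25.2 CPM. Spearman's rho between number and level was -0.35 over the 295 entries, which share the same libraries, and how the numbers were given is not stated in the sources used here. Among the exceptions were novel_493, novel_395 and novel_583, with high numbers and levels among the top 10.

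As to detection, 26 predicted entries (8.81%) had a read in every library, against 598 known entries (53.8%), and 12 had a read in exactly 1 library. Only 6 reached 1 CPM in every library, and 255 (86.4%) did so in none. A library held 58 to 101 predicted entries with at least 3 reads (median 86.5), and 657 to 738 known ones. This number followed depth, with Pearson's r of 0.72 and Spearman's rho of 0.66 between it and the assigned reads over the 22 libraries. After the reads were thinned to the shallowest library it was 58 to 77.9 (median 66.0), and r with depth was -0.14. The thinned numbers averaged 65.4 ± 7.01 in gradual 12 h, 66.3 ± 7.37 in gradual 3 h, 74.4 ± 4.96 in rapid 12 h and 63.0 ± 6.88 in rapid 3 h libraries (SD). They averaged 69.4 ± 3.36 in hypoxia 12 h, 66.4 ± 6.92 in hypoxia 0 h, 64.8 ± 3.15 in normoxia 12 h and 64.2 ± 0.621 in normoxia 0 h libraries. The rapid 12 h libraries were the highest on average, with 70.9 and 77.9, and overlapped with the gradual, rapid 3 h and hypoxia groups but not with the normoxia groups. These numbers were not tested.

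The 295 entries together took 124 to 251 CPM of a library, or 0.0124 to 0.0251% of its assigned reads. The sum was 152 to 164 CPM in gradual 12 h, 169 to 208 CPM in gradual 3 h, 137 and 155 CPM in rapid 12 h, and 125 to 251 CPM in rapid 3 h libraries. It was 180 to 197 CPM in hypoxia 12 h and 150 to 189 CPM in hypoxia 0 h libraries, 124 to 167 CPM in normoxia 12 h libraries, and 215 and 236 CPM in normoxia 0 h libraries. All 3 hypoxia 12 h libraries lay above all 3 normoxia 12 h libraries, and both normoxia 0 h libraries above all 3 of hypoxia 0 h. The highest sum was in rapid 3 h library 2, in which novel_493 alone had 107 CPM. These orders rested on novel_493. Without it the sums were 139, 147 and 148 CPM in hypoxia 12 h libraries, against 159, 159 and 123 CPM in normoxia 12 h libraries, with overlap. At 0 h they were 137, 127 and 167 CPM in hypoxia libraries, against 160 and 191 CPM in normoxia libraries, which then overlapped as well. The sums were not tested.

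**Figure D2:**
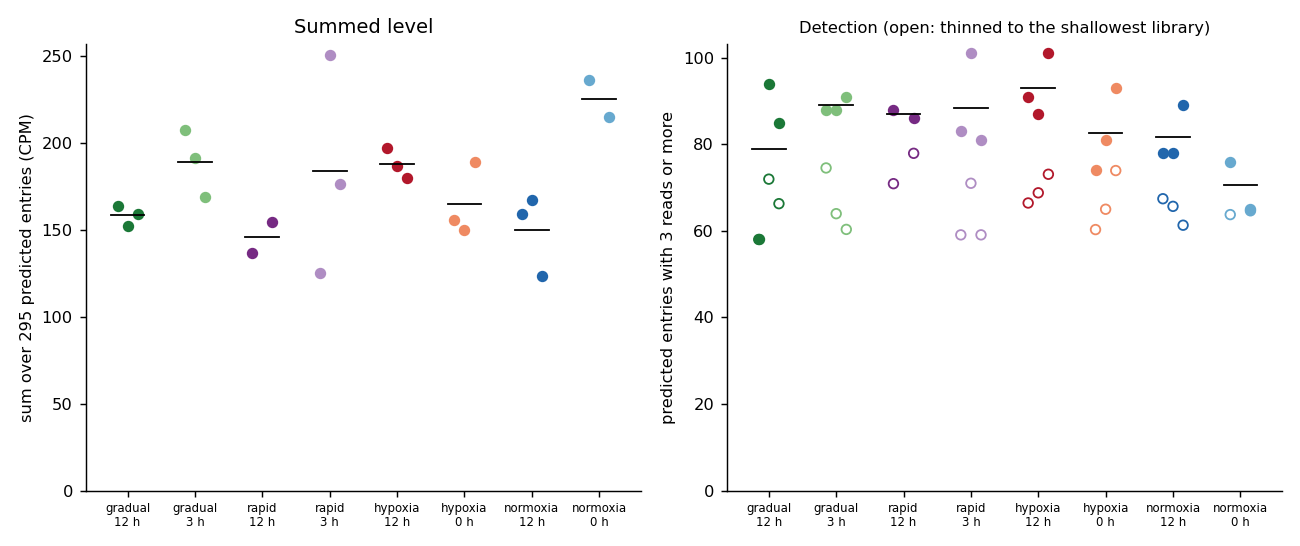
Left: summed level of the 295 predicted entries (CPM) in each library by group, with bars at group means. Right: number of predicted entries with at least 3 reads (filled, bars at group means) and the same after thinning to the shallowest library (open). Sums run from 124 to 251 CPM and thinned numbers from 58 to 77.9, and most groups overlap.

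Among the 35 tested entries, the spread over the 22 libraries was somewhat wider than among known entries. The median SD was 0.53 on the log2(CPM + 1) scale, against 0.41 for the 567 known entries tested and 0.43 for the 327 of them in the same range of mean level. The median share of variance that lay between groups was 42.2%, against 39.6% and 39.9%. The highest SDs belonged to novel_395 (1.93), novel_493 (1.62), novel_115 (1.17), novel_109 (1.10) and novel_487 (0.95), and the lowest to novel_68 (0.22). The share between groups was highest in novel_431 (83.7%), novel_487 (71.8%) and novel_493 (67.8%) and lowest in novel_115 (10.3%), so that the spread of novel_115 lay almost wholly within groups.

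The first comparison asked which entries differed between hypoxia and normoxia at 12 h. Of the predicted entries novel_493 passed the test: it was higher in all 3 hypoxia 12 h libraries, with 58.0, 39.8 and 31.7 CPM, against 0.492, 8.11 and 1.16 CPM in normoxia 12 h libraries. The groups did not overlap, and the lowest hypoxia library was far above the highest normoxia one. No overlap was seen for 5 of the 35 (14.3%) and for 77 of all 602 entries (12.8%). The group means were 43.2 ± 13.4 CPM in hypoxia 12 h and 3.26 ± 4.22 CPM in normoxia 12 h (SD, n = 3 each), and the difference was 3.80 ± 0.84 (SE) on the log2(CPM + 1) scale (adjusted p = 0.0427, limma with Benjamini-Hochberg adjustment over the 602 entries). This was 1 of 35 predicted entries past the threshold, where 0.664% of all entries passed. Over the 35, the median difference was 0.08, against -0.01 over all 602. In a bulk sample, fewer cells of a type and less RNA per cell cannot be told apart.

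The call for novel_493 at 12 h rested on its libraries together. The adjusted p was 0.180, 0.162 and 0.109 (limma) without hypoxia 12 h libraries 1, 2 and 3, 0.270 and 0.159 without normoxia 12 h libraries 1 and 3, and 0.0159 without normoxia 12 h library 2, whose 8.11 CPM was the highest of its group. edgeR's quasi-likelihood test on the recovered reads gave an adjusted p of 0.324, and DESeq2 gave 0.00703. edgeR called 0 of the 35 (0.498% of all entries) and DESeq2 called 1 (1.99%). The summed level of the pancreatic acinar miRNAs miR-216a, miR-216b and miR-217 was 2276 to 3689 CPM in hypoxia 12 h and 470 to 2909 CPM in normoxia 12 h libraries. The summed level of the erythroid miRNAs miR-144, miR-451 and miR-2188 was 2641 to 4238 CPM in hypoxia 12 h and 7452 to 14456 CPM in normoxia 12 h libraries. The smooth muscle list of 2 miRNAs, which holds miR-143, was at 19553 to 21721 CPM in hypoxia 12 h and 13586 to 18084 CPM in normoxia 12 h libraries. The erythroid and smooth muscle lists did not overlap between the groups, and the part of the 3 lists in this result was not tested.

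At 0 h, novel_493 had 18.1, 22.5 and 22.04 CPM in hypoxia libraries, against 76.2 and 23.9 CPM in normoxia libraries. Here both normoxia libraries lay above the 3 hypoxia libraries, the opposite order to that at 12 h, and the difference of -1.01 did not pass (adjusted p = 0.830, limma). It rested on normoxia 0 h library 2: without it the difference was -0.19 ± 1.18 (adjusted p = 0.962), and the remaining 23.9 CPM lay just above the highest hypoxia 0 h library. None of the 35 predicted entries passed in this comparison, where 0.498% of all entries did. The groups lay apart without overlap for 3 of the 35 (8.57%) and for 97 of the 602 (16.1%). At an unadjusted p under 0.05, 1 of the 35 and 50 of the 602 did, and edgeR and DESeq2 called 0 of the 35 each, where they called 3.49% and 7.14% of all. The entries with the smallest p were novel_109, with a difference of -1.92 (adjusted p = 0.476, limma), and novel_487, with 1.02 (adjusted p = 0.636, and a difference of 0.50 with an adjusted p of 0.732 without normoxia 0 h library 2). The value of novel_109 rested on normoxia 0 h library 2: it had 794 reads (32.1 CPM) there and 0 in normoxia 0 h library 3, with 52, 4 and 0 reads in the hypoxia 0 h libraries. Without that library the difference was 0.60, of the opposite sign. novel_109 reached 1 CPM in 2 libraries only, of hypoxia 0 h and normoxia 0 h. It would not have been tested if either group were set aside, so its difference is not independent of the filter. Without normoxia 0 h library 3, library 2 is the only one of its group, and the entries called in that fit are not named here.

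**Figure D3:**
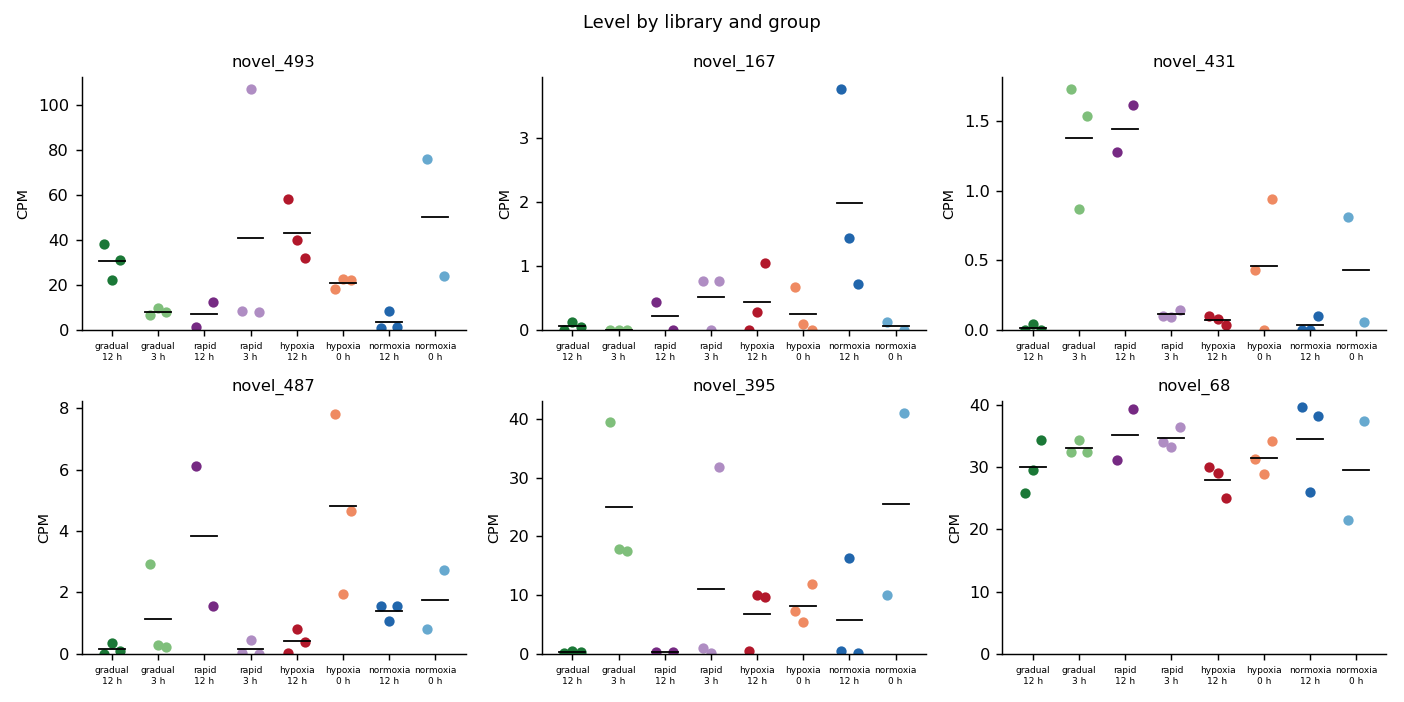
Level (CPM) in each library of 6 predicted entries by group, with bars at group means. novel_493 is highest on average in normoxia 0 h, and is high in hypoxia 12 h and gradual 12 h and low in normoxia 12 h. In rapid 3 h it is high in library 2. novel_167 is highest in normoxia 12 h, novel_431 is high in gradual 3 h and rapid 12 h, and novel_68 varies little.

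The difference between both hypoxia comparisons was itself tested. It was 4.81 ± 1.26 (SE) for novel_493 on the log2(CPM + 1) scale, which did not pass (adjusted p = 0.10, limma), and -1.82 ± 0.71 for novel_487 (adjusted p = 0.480). Without normoxia 0 h library 2 they were 3.99 ± 1.44 and -1.30 ± 0.80. None of the 35 passed, where 0.997% of all entries did. 3 of the 35 and 54 of the 602 had an unadjusted p under 0.05, and the counts among the 35 were 0 by edgeR (0.498% of all) and 1 by DESeq2 (5.15% of all). For novel_493 the adjusted p was 0.0121 without normoxia 0 h library 3, 0.0458 without normoxia 12 h library 2 and 0.434 without normoxia 0 h library 2.

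Normoxia 12 h against normoxia 0 h, which holds no oxygen treatment, called 2 of the 35 entries, beside 4.82% of all entries, and their median difference was -0.03 (-0.09 without normoxia 0 h library 2) against -0.06 over all 602. novel_493 was lower in normoxia 12 h, at 3.26 ± 4.22 CPM (n = 3), against 50.0 ± 37.0 CPM in normoxia 0 h (n = 2), a difference of -3.83 ± 0.94 (adjusted p = 0.0251, limma). novel_167 was higher in normoxia 12 h, with 92, 35 and 23 reads (3.77, 1.44 and 0.720 CPM), against 3 and 0 reads (0.121 and 0 CPM) in normoxia 0 h, a difference of 1.36 ± 0.38 (adjusted p = 0.0443). Neither entry overlapped between the groups, as was the case for 6 of the 35 (17.1%) and for 157 of all 602 entries (26.1%). novel_167 reached 1 CPM in 3 libraries, 2 of them of normoxia 12 h, and would not have been tested without that group. Its differences from normoxia 12 h, here and after reoxygenation, are therefore not independent of the filter. It was 1 of 6 among the 35 that fell under the filter when a single group was set aside. The 3 normoxia 12 h libraries are those used in the hypoxia comparison at 12 h, so the low novel_493 values enter both results.

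These calls did not hold without every library. Without normoxia 0 h library 2 the difference was -3.01 for novel_493 (adjusted p = 0.361, limma) and 1.44 for novel_167 (adjusted p = 0.264). Without normoxia 12 h libraries 1 and 3 in turn the adjusted p (limma) was 0.0946 and 0.0715 for novel_493. For novel_167 the adjusted p was 0.124 without normoxia 12 h library 1, 0.0951 without library 2 and 0.0198 without library 3. edgeR and DESeq2 called 3 of the 35 each, beside 12.1% and 16.1% of all entries. The number of predicted entries called was 0 without normoxia 12 h library 1 and 1 without normoxia 12 h library 2 or 3. The share of all entries called in these fits is not given here. The authors' deposited mean for normoxia 0 h, made with 1 more library that was not analysed here, was 35.4 CPM for novel_493 and 0.731 CPM for novel_167, where the libraries used gave 50.0 and 0.0606 CPM.

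Several marker lists also lay apart in the normoxia groups. The erythroid list was at 7452 to 14456 CPM in normoxia 12 h and 858 to 2434 CPM in normoxia 0 h libraries. Of those that were lower in normoxia 12 h, as novel_493 was, the smooth muscle list was at 13586 to 18084 CPM in normoxia 12 h and 26816 to 65535 CPM in normoxia 0 h libraries. The pancreatic acinar list was at 470 to 2909 CPM in normoxia 12 h and 4134 to 4270 CPM in normoxia 0 h libraries. The epithelial list was at 1197 to 2597 CPM against 2830 to 18011 CPM, and the striated muscle list at 9.39 to 11.4 CPM against 18.7 to 48.6 CPM. None of these lists overlapped between the groups, and their part in the differences of novel_493 and novel_167 was not tested.

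Gradual reoxygenation at 12 h was set against the same 3 normoxia 12 h libraries. novel_167 was lower after gradual reoxygenation, with 0, 3 and 1 reads (0, 0.112 and 0.0354 CPM), against 92, 35 and 23 reads in normoxia 12 h. All gradual 12 h libraries were at or below the floor of 3 reads, and no value overlapped. The same lack of overlap was seen for 5 of the 35 (14.3%) and for 128 of the 602 (21.3%). The difference was -1.37 ± 0.34 on the log2(CPM + 1) scale (adjusted p = 0.0477, limma), in means of 0.0493 and 1.98 CPM. It was the 1 call among the 35, where 1.66% of all entries passed, with a median difference of -0.07 among the 35 and -0.12 among all 602. Scaling with TMM factors moved the median of all entries by 0.17, to 0.05, and under it novel_167 had an adjusted p of 0.0513. edgeR called 0 of the 35 (0% of all) and DESeq2 called 2 (3.65% of all).

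Without gradual 12 h libraries 1, 2 and 3 in turn, novel_167 had an adjusted p of 0.249, 0.0625 and 0.0958 (limma), and without normoxia 12 h libraries 1 and 2 it had 0.249 and 0.166. Without normoxia 12 h library 3 it had 0.0390. The erythroid list was at 903 to 4668 CPM in gradual 12 h and 7452 to 14456 CPM in normoxia 12 h libraries. The leukocyte list was at 49.4 to 73.8 CPM in gradual 12 h and 78.1 to 115 CPM in normoxia 12 h libraries. Neither list overlapped, and their part in the result was not tested. novel_493 had 37.9, 22.1 and 31.0 CPM in gradual 12 h libraries, all above the normoxia 12 h libraries, and a difference of 3.31 ± 0.84 that did not pass (adjusted p = 0.0548, limma). It is given here after its values were seen.

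Over all groups, novel_167 reached 1 CPM in 3 libraries only: normoxia 12 h libraries 1 and 2 and hypoxia 12 h library 3, which had 32 reads (1.05 CPM) beside 0 and 7 reads in the other libraries of that group. It had 0 reads in all 3 gradual 3 h libraries, 10 and 0 reads in rapid 12 h, 24, 0 and 22 reads in rapid 3 h, and 17, 2 and 0 reads in hypoxia 0 h libraries. Apart from normoxia 12 h, every group therefore had at least 1 library at 3 reads or fewer. The known entries nearest to it in log2(CPM + 1) over the 22 libraries were dre-miR-16b (r = 0.54, rho = 0.49), ssa-miR-2188-3p (r = 0.45, rho = 0.20) and gga-miR-16-5p (r = 0.44, rho = 0.30). Without the 2 normoxia 12 h libraries farthest from its median, r was 0.49, 0.02 and 0.26, so that the likeness to miR-2188 rested on those libraries.

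Rapid reoxygenation at 12 h, against the same normoxia 12 h libraries, called none of the 35 predicted entries and 0% of all. At an unadjusted p under 0.05 there were 3 of the 35 and 27 of the 602, and edgeR called 0 (0% of all) and DESeq2 1 of the 35 (1.33% of all). The smallest p belonged to novel_431, with 30 and 33 reads (1.28 and 1.61 CPM) in rapid 12 h libraries, against 0, 0 and 3 reads (0, 0 and 0.0940 CPM) in normoxia 12 h libraries. The groups did not overlap, and the difference of 1.24 ± 0.25 did not pass (adjusted p = 0.0765, limma). Such a lack of overlap held for 4 of the 35 (11.4%) and for 107 of the 602 (17.8%). The next was novel_167, with 0.213 ± 0.301 CPM in rapid 12 h and 1.98 ± 1.60 CPM in normoxia 12 h libraries and a difference of -1.19 ± 0.38 (adjusted p = 0.378).

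novel_431 was the 1 predicted entry that differed among the 8 groups in a single test (adjusted p = 0.00914, moderated F test in limma), where 1.5% of all entries passed. It stayed past the threshold in each of 31 alternative settings, with adjusted p from 1.17e-05 to 0.0458. edgeR called 4 of the 35 (15.1% of all entries) and DESeq2 called 7 (24.8%). The limma count was 2 without gradual 3 h library 1, rapid 3 h library 2 or hypoxia 0 h library 2. The share of all entries called in these fits is not given here. The reads of novel_431 were concentrated in 2 groups: 44, 27 and 52 reads (1.73, 0.872 and 1.54 CPM) in gradual 3 h and 30 and 33 reads in rapid 12 h libraries. The 4 libraries in which it reached 1 CPM were all of these 2 groups, so it was tested because of them. Differences of novel_431 that involve these groups are therefore not independent of the filter. In gradual 12 h it had 0, 1 and 0 reads, in rapid 3 h 3, 3 and 4, in hypoxia 12 h 3, 2 and 1, and in normoxia 12 h 0, 0 and 3 reads. Hypoxia 0 h and normoxia 0 h were mixed, with 11, 0 and 25 reads and with 20 and 1 reads.

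The order of the group means of novel_431 was 1.44 ± 0.239 CPM in rapid 12 h, 1.38 ± 0.451 in gradual 3 h, 0.456 ± 0.471 in hypoxia 0 h, 0.432 ± 0.531 in normoxia 0 h, 0.109 ± 0.0257 in rapid 3 h, 0.0682 ± 0.0321 in hypoxia 12 h, 0.0313 ± 0.0542 in normoxia 12 h and 0.0125 ± 0.0216 in gradual 12 h libraries. Rapid 12 h and gradual 3 h differed by less than their spread, as did hypoxia 0 h and normoxia 0 h. In the last 4 groups of this order no library had more than 4 reads. The authors' deposited mean for rapid 12 h, made with 1 more library, was 1.03 CPM. The known entries nearest to novel_431 were gga-miR-142-5p (r = 0.62, rho = 0.57), oni-miR-142b (r = 0.61, rho = 0.53) and mmr-miR-187 (r = 0.55, rho = 0.57). Without the 2 libraries farthest from its median, r was 0.47, 0.46 and 0.51. miR-142 is a miRNA of blood cells, and the summed level of the leukocyte list of miR-142, miR-223, miR-150 and miR-155 was 74.9 to 96.1 CPM in gradual 3 h, 61.9 and 128 CPM in rapid 12 h and 49.4 to 134 CPM over all libraries. The known entry pbv-miR-142-5p was at 35.8 to 49.3 CPM in gradual 3 h and 21.1 and 61.0 CPM in rapid 12 h libraries. It was at 17.3 to 25.7 CPM in rapid 3 h and 7.32 to 19.1 CPM in gradual 12 h libraries. In normoxia 12 h libraries, where novel_431 was low, it was at 30.7 to 34.1 CPM, and it spanned 13.8 to 57.5 CPM over the remaining groups. The part of leukocytes in the novel_431 pattern was not tested.

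Gradual against rapid reoxygenation gave opposite orders for novel_431 at 3 h and at 12 h. At 3 h it had 1.38 ± 0.451 CPM after gradual and 0.109 ± 0.0257 CPM after rapid reoxygenation, with no overlap and a difference of 1.08 ± 0.23 (adjusted p = 0.0996, limma). At 12 h it had 0.0125 ± 0.0216 CPM after gradual and 1.44 ± 0.239 CPM after rapid reoxygenation, again with no overlap, and a difference of -1.27 ± 0.25 (adjusted p = 0.0617). Neither passed the threshold. Since novel_431 reached 1 CPM only in gradual 3 h and rapid 12 h libraries, these differences are not independent of the filter. At 3 h, 6 of the 35 (17.1%) and 118 of all 602 entries (19.6%) did not overlap. At 12 h, 9 of the 35 (25.7%) and 125 of the 602 (20.8%) did not. At 3 h the next was novel_398, with 1.06, 0.678 and 1.09 CPM after gradual and 0.189, 0.343 and 0.139 CPM after rapid reoxygenation, a difference of 0.67 ± 0.21 (adjusted p = 0.242). novel_398 reached 1 CPM in gradual 3 h libraries alone and passed the filter through them. At 12 h it was novel_487, with 0.148 ± 0.172 CPM after gradual and 3.84 ± 3.22 CPM after rapid reoxygenation, a difference of -1.91 ± 0.53 (adjusted p = 0.201, limma). Without rapid 12 h library 2 the adjusted p was 0.0407, from a group of 1 library, the higher one at 6.12 CPM, and without rapid 12 h library 1 it was 0.697.

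No predicted entry was called in either of these comparisons, and 0% of all entries were. At 3 h, 6 of the 35 and 57 of the 602 had an unadjusted p under 0.05, and at 12 h 4 and 41 did. edgeR called 0 of the 35 at either time (0% of all), and DESeq2 called 1 at each (2.33% of all at 3 h and 0.664% at 12 h). Without gradual 3 h library 1, limma called novel_137 at 3 h, in a fit whose share of all entries called is not given here. The median difference over the 35 was 0.21 at 3 h, against -0.01 over all 602, and 0.00 at 12 h, against -0.06 over all. TMM scaling moved the median of all entries by 0.12 at 12 h. At 3 h the erythroid list was at 9755 to 13151 CPM after gradual and 3039 to 4858 CPM after rapid reoxygenation. The pancreatic acinar list was at 38.4 to 1388 CPM against 2550 to 3513 CPM. The hepatocyte, epithelial, smooth muscle and neural lists did not overlap at 3 h either, while the leukocyte and striated muscle lists did. At 12 h only the epithelial list lay apart. The part of these lists in the differences was not tested.

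The reoxygenation groups labelled 3 h were set against hypoxia 0 h. The labelled hours and the treatment differ together in these comparisons, and their parts cannot be told apart. After rapid reoxygenation novel_487 had 1, 14 and 0 reads (0.0315, 0.437 and 0 CPM), against 201, 48 and 124 reads (7.83, 1.94 and 4.66 CPM) in hypoxia 0 h. The groups did not overlap, as for 3 of the 35 (8.57%) and 79 of the 602 (13.1%). The difference of -2.21 ± 0.47 did not pass (adjusted p = 0.0828, limma), nor with edgeR (adjusted p = 0.351), while DESeq2 gave 0.00740. Leaving out hypoxia 0 h library 2 gave an adjusted p of 0.0339 in limma, and leaving out rapid 3 h library 3 gave 0.682. The next smallest p belonged to novel_160, with 1.01 ± 0.277 CPM after rapid reoxygenation and 0.477 ± 0.142 CPM in hypoxia 0 h libraries (adjusted p = 0.999). None of the 35 passed and 0% of all entries did. At an unadjusted p under 0.05 there were 1 of the 35 and 16 of the 602, with 0 of the 35 called by edgeR (0% of all) and 1 by DESeq2 (1.16% of all).

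In the gradual 3 h group, where hours and treatment again differ together, novel_487 had 74, 9 and 8 reads (2.91, 0.291 and 0.237 CPM). It overlapped with the same hypoxia 0 h libraries, and the difference was -1.52 ± 0.47 (adjusted p = 0.210, limma). novel_431 had 1.38 ± 0.451 CPM after gradual reoxygenation and 0.456 ± 0.471 CPM in hypoxia 0 h, a difference of 0.74 ± 0.23 with overlap (adjusted p = 0.210). None of the 35 passed and 0% of all entries did. At an unadjusted p under 0.05 there were 7 of the 35 and 89 of the 602, with 0 of the 35 called by edgeR (0% of all) and 1 by DESeq2 (3.49% of all). The median difference over the 35 was 0.18, against 0.02 over all 602. The erythroid list was at 9755 to 13151 CPM after gradual reoxygenation and 2784 to 5021 CPM in hypoxia 0 h libraries. The pancreatic acinar list was at 38.4 to 1388 CPM against 2300 to 3499 CPM. The hepatocyte, epithelial, smooth muscle and striated muscle lists lay apart as well, while the leukocyte and neural lists overlapped. Their part in the differences was not tested.

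**Figure D4:**
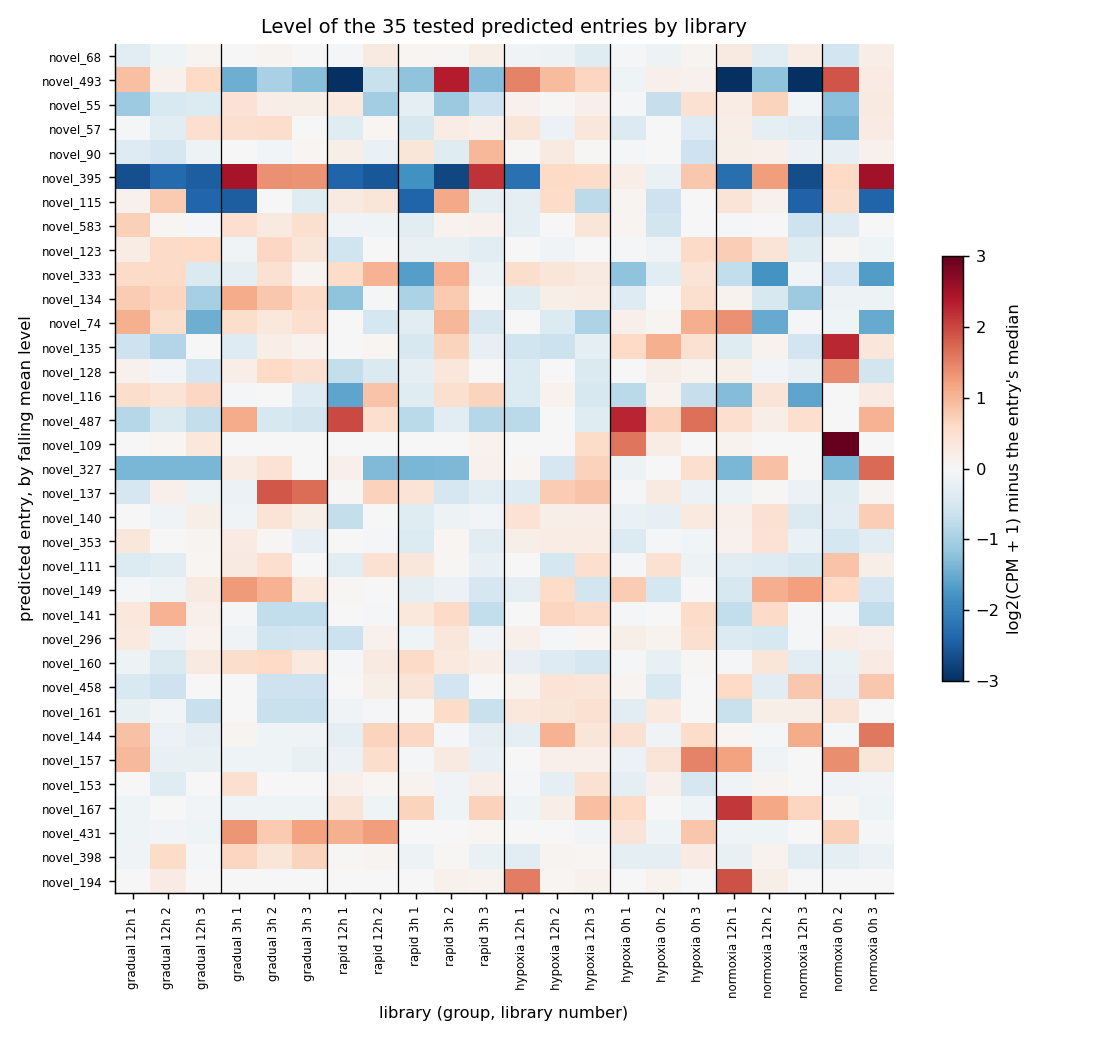
Level of the 35 tested predicted entries in each library, as log2(CPM + 1) minus the median of the entry over 22 libraries, with the colour scale limited to 3 in each direction. Columns are libraries in groups, and rows run by falling mean level. The rows of novel_493 and novel_395 vary most among the abundant entries, and novel_109 stands out in normoxia 0 h library 2.

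novel_395, the entry with the highest SD, passed no test (adjusted p = 0.227 among the 8 groups, limma). It had 39.5, 17.9 and 17.5 CPM in gradual 3 h libraries and 10.1 and 40.9 CPM in normoxia 0 h libraries, but 0.172, 0.450 and 0.319 CPM in gradual 12 h and 0.383 and 0.245 CPM in rapid 12 h libraries. Other groups held both kinds of library: rapid 3 h had 1.07, 0.0936 and 31.8 CPM, hypoxia 12 h 0.540, 10.002 and 9.66 CPM, and normoxia 12 h 0.533, 16.4 and 0.157 CPM. Hypoxia 0 h lay between, with 7.32, 5.41 and 11.9 CPM. Rapid 3 h, hypoxia 12 h and normoxia 12 h libraries of novel_395 thus overlapped with each other. novel_68, the most abundant entry, lay between 21.6 and 39.6 CPM in all 22 libraries (adjusted p = 0.904 among the 8 groups).

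A few predicted entries were at a level of many reads in most libraries and nearly absent in others, with nothing between. The description was chosen after values were seen and was not tested. It takes entries with 3 reads or fewer in at least 3 libraries, 10 reads or more in at least 3, and no library at 4 to 9 reads. It was met by 4 of the 35 tested predicted entries and by 0 of the 567 known entries tested, 327 of which lie in the same range of mean level. novel_115 had 0 to 2 reads in 5 libraries and 65 to 361 in the other 17. novel_141 had 0 reads in 5 libraries and 13 to 65 in 17. novel_327 had 0 or 1 read in 8 libraries and 22 to 132 in 14, and novel_74 had 0 or 1 read in 3 libraries and 15 to 153 in 19.

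These splits ran mostly within groups. Groups with both kinds of library numbered 5 for novel_115, 4 for novel_141, 4 for novel_327 and 3 for novel_74. Only novel_327 had a whole group low, with 0 reads in all 3 gradual 12 h libraries. It had 2.05, 2.52 and 1.63 CPM in gradual 3 h and 1.36, 1.61 and 2.71 CPM in hypoxia 0 h libraries. Against the mean floor of 3 reads per library (0.130 CPM), gradual 12 h was at least 15.9-fold lower than gradual 3 h and at least 14.6-fold lower than hypoxia 0 h. In the fit over all entries novel_327 passed no comparison (adjusted p = 0.547 among the 8 groups, limma), and gradual 12 h against gradual 3 h was not tested.

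**Figure D5:**
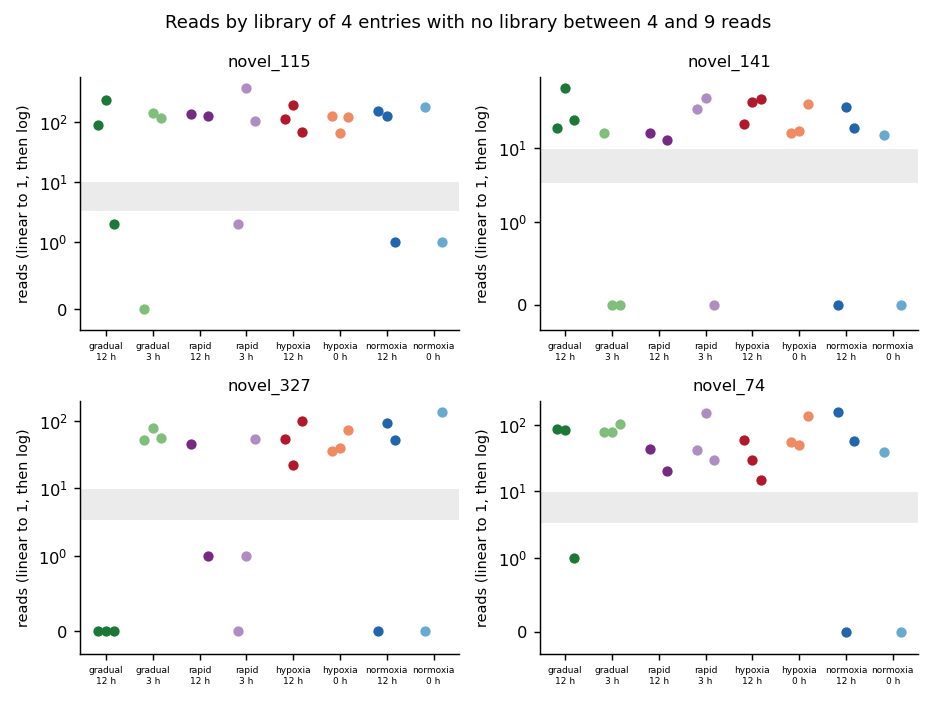
Reads in each library by group (axis linear to 1, then log) for novel_115, novel_141, novel_327 and novel_74. The grey band marks 4 to 9 reads, where no library falls. novel_115 has 5 libraries at 0 to 2 reads and 17 at 65 to 361.

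The nearest known entries to novel_493 in log2(CPM + 1) were mmu-miR-143-3p, a smooth muscle miRNA (r = 0.57, rho = 0.56), abu-miR-734 (r = 0.55, rho = 0.54) and xla-miR-217-5p, a miRNA of the exocrine pancreas (r = 0.55, rho = 0.56). Without the 2 libraries farthest from its median, both of normoxia 12 h, r was 0.56, 0.46 and 0.69. In rapid 3 h, novel_493 had 8.15, 107 and 7.58 CPM while the pancreatic list spanned 2550 to 3513 CPM. In rapid 12 h libraries 1 and 2 novel_493 had 1.32 and 12.3 CPM, and the pancreatic list spanned 32.6 to 3441 CPM. The part of pancreatic cells in the levels of novel_493 was not tested. Among predicted entries, novel_296 was the nearest to novel_493 (r = 0.68, rho = 0.70, r = 0.65 without the 2 libraries farthest from the median of novel_296). novel_327 was near novel_55 (r = 0.69, rho = 0.70) and novel_395 (r = 0.69, rho = 0.64), with 0.68 and 0.61 without its 2 farthest libraries.

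The highest correlation between predicted entries was that of novel_109 and novel_135 (r = 0.74), but rho was 0.27, and without normoxia 0 h library 2 and hypoxia 0 h library 1 r was 0.08. novel_135 had 11.4 CPM in normoxia 0 h library 2 and 4.44 CPM in its next highest library. All these correlations are descriptions over 22 libraries that share depth and composition. No pair among the 35 had levels within 0.2 on the log2 scale in every library, so by this measure none of them was a near copy of another.

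Entries at the edge of the filter differed little. The last one inside was novel_153, with a highest level of 1.06 CPM and a second highest of 1.02 CPM, and the first one outside was novel_169, with 1.46 and 0.975 CPM. Of the 5 entries that reached 1 CPM in 1 library only, novel_165 had 122 reads (6.98 CPM) in gradual 12 h library 1 and 0.687 CPM in its next, and novel_152 had 162 reads (6.54 CPM) in normoxia 0 h library 2 and 0.311 CPM in its next. The other members of this set, novel_169, novel_355 and novel_195, had at most 1.46, 1.30 and 1.17 CPM. The 260 entries outside the filter were not tested in the main fit. Only the alternative with no filter took in entries from outside it.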

How the data were processed

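Small RNA of golden pompano liver was sequenced with single-end reads of 50 bases after Trizol extraction, per the labels' protocols. The submitters' processing notes name Bowtie, with no version. For the genome build, the prediction program and the read counter, no name is given in the sources used here. The authors deposited CPM values (reads per entry, scaled to a sum of 1000000 per library) for 2108 entries in 22 library columns, with 8 columns of group means. The name of the deposited table says TPM, but 100% of the values are whole multiples of 1 read within 0.05 reads and each column has the same sum, so no length enters them. Whole reads were recovered from them.

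Columns were joined to the groups by the times in their names, by an R before the reoxygenation times and by the number of libraries per group. The labels do not explain the letters in the column names, which limits every comparison. The normoxia 0 h columns carry no time, were placed by how many libraries the group has and nothing else, and are numbered 2 and 3 in the table. The authors' means of normoxia 0 h and rapid 12 h include a further library each, which was not analysed here, and the other 6 means equal those of the libraries within rounding.

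Of the 299 predicted entries, 4 pairs had identical values and were counted once, and 10 entries had the same reads as a known entry, at most 3 in total. Removing 708 repeated entries overall left 1400. The test was limma 3.58.1 in R 4.3.3 on log2(CPM + 1), for entries that reached 1 CPM in 2 libraries or more. All 8 groups shared the fit, which used a trend of variance with level. Benjamini-Hochberg adjustment ran over the 602 entries in each comparison, with a threshold of 0.05. The fit was also run on simulated counts with the same dispersion for all entries and no outlying library. That check required recovery of changes only at 10 CPM or more, so it does not cover most predicted entries. On this scale the change of low entries is understated. Comparisons at 12 h with normoxia share 3 normoxia libraries, those with hypoxia 0 h share its 3, and those with normoxia 0 h its 2. Alternatives were TMM factors, pseudocounts of 10 and 0.5, no filter, 1 CPM in at least 3 libraries, identical entries kept, edgeR 4.0.16 and DESeq2 1.42.0 on the recovered reads, a replicate block, both groups fitted alone, and each library left out. Leaving novel_493 out of the summed level was added after seeing the data.

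The entries named are the 10 most abundant, those past the threshold in a comparison or, where none passed, the 2 with the smallest p, the 5 with the highest SD, those at 0 in a group and at 1 CPM or more in another, the nearest known entries of those past a threshold, and the entries at the edge of the filter. Others are named as chosen after their values were seen, in the paragraphs on name numbers, on reads split between libraries, on likeness between predicted entries and on entries over 1 CPM in 1 library. The members and lists were chosen with earlier results of these data known. Floors and thinned numbers cover counting error only. Figures were drawn with matplotlib 3.10.9 in Python 3.11.15.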

Additional observations from a re-analysis of the deposited data

Results flagged for a closer look

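novel_493 moved in opposite directions in the hypoxia comparisons of both times. All 3 hypoxia 12 h libraries lay above the normoxia 12 h libraries (difference 3.80 on the log2(CPM + 1) scale), and all 3 hypoxia 0 h libraries lay below the normoxia 0 h libraries (-1.01). The 0 h value rested on normoxia 0 h library 2, and without it was -0.19, with 23.9 CPM in the remaining library. The difference between the comparisons was 4.81, and its own test did not pass (adjusted p = 0.10, limma, and 0.434 without that library, at a difference of 3.99).

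novel_431 moved in opposite directions between gradual and rapid reoxygenation. All gradual 12 h libraries lay below the rapid 12 h libraries (-1.27), and all gradual 3 h libraries lay above the rapid 3 h libraries (1.08). The difference between the comparisons was -2.35 on the same scale, and it was not tested. The groups in which novel_431 was high are those through which it passed the filter.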

How the results depend on the processing

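Counts of predicted entries called were 0 to 2 in every comparison and depended on the setting, and the cause was not tested. The counts by setting and by library left out are given without the share of all entries called in the same fit. They show dependence on the setting only, and are not a result about predicted entries. For hypoxia 12 h against normoxia 12 h (1 call) the count was 0 with a pseudocount of 10, with no filter, with identical entries kept and with edgeR. For hypoxia 0 h against normoxia 0 h it was 1 with no filter. For normoxia 12 h against normoxia 0 h (2 calls) it was 1 with TMM factors, with a pseudocount of 0.5, with identical entries kept and with the replicate block, and 0 with a pseudocount of 10 and with both groups fitted alone; edgeR and DESeq2 gave 3. For gradual 12 h against normoxia 12 h (1 call) it was 0 with TMM factors, with a pseudocount of 10, with no filter, with edgeR, with the replicate block and with both groups fitted alone, and 2 with a pseudocount of 0.5 and with DESeq2. Where limma called 0, DESeq2 called 1 in rapid 3 h and gradual 3 h against hypoxia 0 h, rapid 12 h against normoxia 12 h, gradual against rapid at 3 h and at 12 h, and the test between both hypoxia comparisons. No filter gave 4 for rapid 12 h against normoxia 12 h and 4 for gradual against rapid at 12 h. The fits with no filter took in predicted entries from outside the tested ones, so their counts are out of a larger number. Fitting the groups alone gave 1 for gradual 3 h against hypoxia 0 h and 1 for gradual against rapid at 3 h, where a pseudocount of 10 also gave 1. Among the 8 groups (1 call) the count was 2 with no filter, 4 with edgeR, 7 with DESeq2 and 2 with the replicate block.

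With each library left out in turn, counts ranged from 1 to 6 among the 8 groups, 0 to 1 for hypoxia 12 h and for gradual 12 h against normoxia 12 h, 0 to 8 for normoxia 12 h against normoxia 0 h, 0 to 3 for hypoxia 0 h against normoxia 0 h, 0 to 1 for gradual against rapid at 3 h and at 12 h and for rapid 3 h against hypoxia 0 h, and 0 to 2 for the test between both hypoxia comparisons. They stayed at 0 for gradual 3 h against hypoxia 0 h and rapid 12 h against normoxia 12 h. The highest count for normoxia 12 h against normoxia 0 h came from the fit without normoxia 0 h library 3. That fit leaves the outlying library 2 alone in its group, so its count is not a result about the group. The other ranges that involve normoxia 0 h include the same fit. The range for gradual against rapid at 12 h includes fits with 1 rapid 12 h library. The median number of entries with 3 reads was 86 to 87, and the summed share 0.0167 to 0.0169%. The same number was 66.0 after thinning, 135 with at least 1 read and 36.5 with at least 10 reads, and the summed share was 0.0139% with the most abundant entry left out and 0.0145% without novel_493, which was chosen after seeing the data. The 1 named difference that changed sign was novel_109 in hypoxia 0 h against normoxia 0 h, 0.60 without normoxia 0 h library 2. Without library 3, which leaves 1 library in its group, it was -4.44. novel_109 passed the filter only through the groups compared. Of the other values of named entries, 263 stayed on their side of the threshold, 40 lost it and 13 gained it. Only a call past the threshold in the main fit could lose it, and that of novel_431 among the 8 groups did not. All 40 losses therefore fell on the few calls of novel_493 and novel_167. The 263 include entries that did not pass in the main fit and stayed so.

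No pairing by library number was seen. Over 70 pairs with the same number the correlation of deviations ran from -0.47 to 0.49 (median -0.06), and 7 of 22 libraries were closest to their own number. Deviations from the mean of a group cancel out within it, so these pairs are not separate checks and cannot exclude a pairing. With the replicate block, novel_493 had an adjusted p of 0.00942 in hypoxia 12 h against normoxia 12 h (limma). Depth limits most entries: the median predicted entry had 21 reads over 22 libraries, and differences below the floor of 3 reads were not detectable.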
